A study of Mus musculus with 48 samples.

Results

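The 9 genes described here are the 4 *Egr* genes (*Egr1*, *Egr2*, *Egr3* and *Egr4*), the corepressor genes *Nab1* and *Nab2*, and the 3 *Nr4a* genes (*Nr4a1*, *Nr4a2* and *Nr4a3*). They were chosen by name among the 24421 genes of the count table. All 9 passed the filter on low counts in each of the 15 comparisons, in which between 15078 and 15570 genes were tested.

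The EGR proteins are zinc finger transcription factors whose genes are switched on within minutes of synaptic activity, without new protein synthesis, as part of the immediate early gene response. NAB1 and NAB2 bind an inhibitory domain that several, but not all, EGR proteins hold, and repress the target genes of these proteins. *Nab2* is itself induced by EGR proteins as a negative feedback. The NR4A proteins are orphan nuclear receptors that act without a known natural ligand, are induced by cAMP and calcium signals through CREB, and are known in the hippocampus for their part in the consolidation of memory.

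RNA-sequencing was performed on the hippocampal Cornus Ammonis (CA, dissected without the dentate gyrus) of 48 male mice, 8 weeks old by the labels, with 1 library per mouse. In the Glu-CB1 mice, called the Glu line below (labelled strain nex-cre x CB1f/f), Cre recombinase under *Nex* regulatory elements deletes the cannabinoid receptor CB1 in glutamatergic neurons of the dorsal telencephalon, and in the GABA-CB1 mice, called the GABA line (dlx5/6-cre x CB1f/f), Cre under *Dlx5/6* regulatory elements deletes it in GABAergic neurons of the forebrain. CB1-WT mice were littermates and carry the same strain label as the KO mice of their line. Mice were taken from the home cage (basal state, with 5 CB1-WT and 7 KO mice of the Glu line and 6 CB1-WT and 6 KO mice of the GABA line) or had explored an open field, a new arena, for 5 min, with tissue taken 60 min later (5 CB1-WT and 7 KO mice of the Glu line, 7 CB1-WT and 5 KO mice of the GABA line). Mice were chosen for sequencing by the study on tissue purity, anxiety-like behaviour and the neuronal activity that the open field evoked, for which *Arc* mRNA was measured, and the part of this choice in the responses below was not tested. The comparisons ask how these genes respond to a short exploration and whether the loss of CB1 in either population of neurons alters their level or their response.

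Library totals ran from 25892654 to 34091080 counts. *Cnr1*, the gene that encodes CB1, separated KO from CB1-WT libraries without overlap in both lines and states, being lower in KO mice, which is what the labels give. Libraries were split into 2 sets at the largest gap in the log2 CPM (CPM, library-scaled counts) of *Xkr4*, a rule chosen after seeing the data. Both sets cross all 8 groups. By this rule 14 libraries had between 3.22 and 5.51 CPM of *Xkr4*, and the other 34 between 8.74 and 39.3 CPM. No label names these sets, but the smaller set lay among the lower of the numbers that end the sample titles of each line. In the Glu line 9 of the 11 libraries with the lowest numbers and 0 of the other 13 were in the smaller set, and in the GABA line 5 of the 12 with the lowest numbers and 0 of the other 12. Markers of CA pyramidal cells summed to between 577 and 754 CPM, with 8 of the 8 listed in the table counted in every library. All 8 markers of dentate granule cells were also counted in every library, with sums between 172 and 413 CPM, and in the GABA line none of the 8 was higher after the open field (median log2 fold change -0.18, none called). In the Glu line 2 of the 8 were higher (median -0.076, none called), and the part of remaining dentate tissue in the results below was not tested. One mouse stood apart for the genes described here: replicate 5 of the basal GABA-CB1-KO mice had levels of *Egr1*, *Egr2* and *Nr4a3* that lay within those of the open field mice, so most results that rest on it are given with and without it.

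To show what surrounds the start of these genes, the 250 bases before the RefSeq start (GRCm38.p6, printed 5′ to 3′ on the strand of the gene) are given for the *Egr* and *Nr4a* genes with the largest response to the open field among those matched, and for *Nab1*, which was called in neither line. Capitals mark matches, searched on both strands, to the CArG box (the site of serum response factor, SRF), to TGACG, a short form of the cAMP response element (CRE, in full TGACGTCA, which holds TGACG), to the EGR site GCGNGGGCG and to the NR4A site AAAGGTCA.
Egr2 (chr10:67537619-67537868, + strand): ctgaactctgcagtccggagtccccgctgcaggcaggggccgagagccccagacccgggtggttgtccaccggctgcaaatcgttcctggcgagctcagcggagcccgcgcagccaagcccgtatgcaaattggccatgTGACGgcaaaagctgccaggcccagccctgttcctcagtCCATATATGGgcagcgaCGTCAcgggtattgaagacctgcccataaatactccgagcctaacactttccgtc
Egr4 (chr6:85513590-85513839, - strand): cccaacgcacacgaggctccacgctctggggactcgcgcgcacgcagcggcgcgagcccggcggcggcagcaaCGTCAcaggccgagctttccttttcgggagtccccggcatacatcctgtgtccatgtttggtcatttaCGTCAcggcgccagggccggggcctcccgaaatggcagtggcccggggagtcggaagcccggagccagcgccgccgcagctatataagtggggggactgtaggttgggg
Nr4a1 (chr15:101266596-101266845, + strand): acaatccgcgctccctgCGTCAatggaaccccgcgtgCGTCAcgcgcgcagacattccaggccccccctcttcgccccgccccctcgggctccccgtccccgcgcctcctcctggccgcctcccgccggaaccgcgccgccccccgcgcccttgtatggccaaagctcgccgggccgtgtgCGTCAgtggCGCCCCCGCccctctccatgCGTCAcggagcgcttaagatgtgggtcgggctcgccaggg
Nab1 (chr1:52500449-52500698, - strand): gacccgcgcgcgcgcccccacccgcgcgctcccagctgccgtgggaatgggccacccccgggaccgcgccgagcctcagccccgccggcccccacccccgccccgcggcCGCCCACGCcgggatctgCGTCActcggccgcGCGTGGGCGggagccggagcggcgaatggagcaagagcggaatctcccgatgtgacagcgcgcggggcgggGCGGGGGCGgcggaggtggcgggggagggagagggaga

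The *Egr2* window held 1 CArG box, 72 to 63 bases before the start (positions -72 to -63), and 2 TGACG sites, while 1.47% of 32851 mouse promoters of the same length held a CArG box and 17.8% a TGACG site. The *Egr4* window, whose RefSeq start lies 47 bases before the start in the count table, held 2 TGACG sites. In *Nr4a1* there were 4 TGACG sites and 1 EGR site, which 4.7% of promoters held. *Nr4a2* and *Nr4a3*, not printed, also held 4 TGACG sites each, and *Nr4a2* held 1 EGR site. The *Nab1* window held 3 EGR sites and 1 TGACG site, and that of *Nab2* (chromosome 10, 127666704 to 127666953) held no match to these letters. The EGR site is itself nearly all G and C, and the share of 4.7% is over promoters of any composition. G and C made up 74.4% of the *Nr4a1*, 80% of the *Nr4a2* and 80.8% of the *Nab1* window. No full CRE (in 1.55% of promoters) and no NR4A site (in 1.34%) was found in the 7 windows matched. *Egr1* and *Egr3* had no matched entry. These are matches of letters and not measured binding.

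Levels between genes were compared as RPKM, CPM divided by the exon length in kilobases. In the basal state *Egr1* had the highest level, with a mean over the 4 groups of 29.8 RPKM, followed by *Egr3* (25.2), *Nr4a3* (24.4), *Nr4a1* (18.7), *Nab2* (15), *Nr4a2* (12.2) and *Nab1* (6.17). *Egr4* (2.73 RPKM) and *Egr2* (0.472 RPKM) were far lower. After the open field the order was the same, from *Egr1* at 50.8 RPKM to *Egr2* at 2.28 RPKM, and *Nr4a3* (29) and *Nr4a1* (28.8) had come close to each other. The plot of levels per mouse shows all 48 values of each gene.

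**Figure D1:**
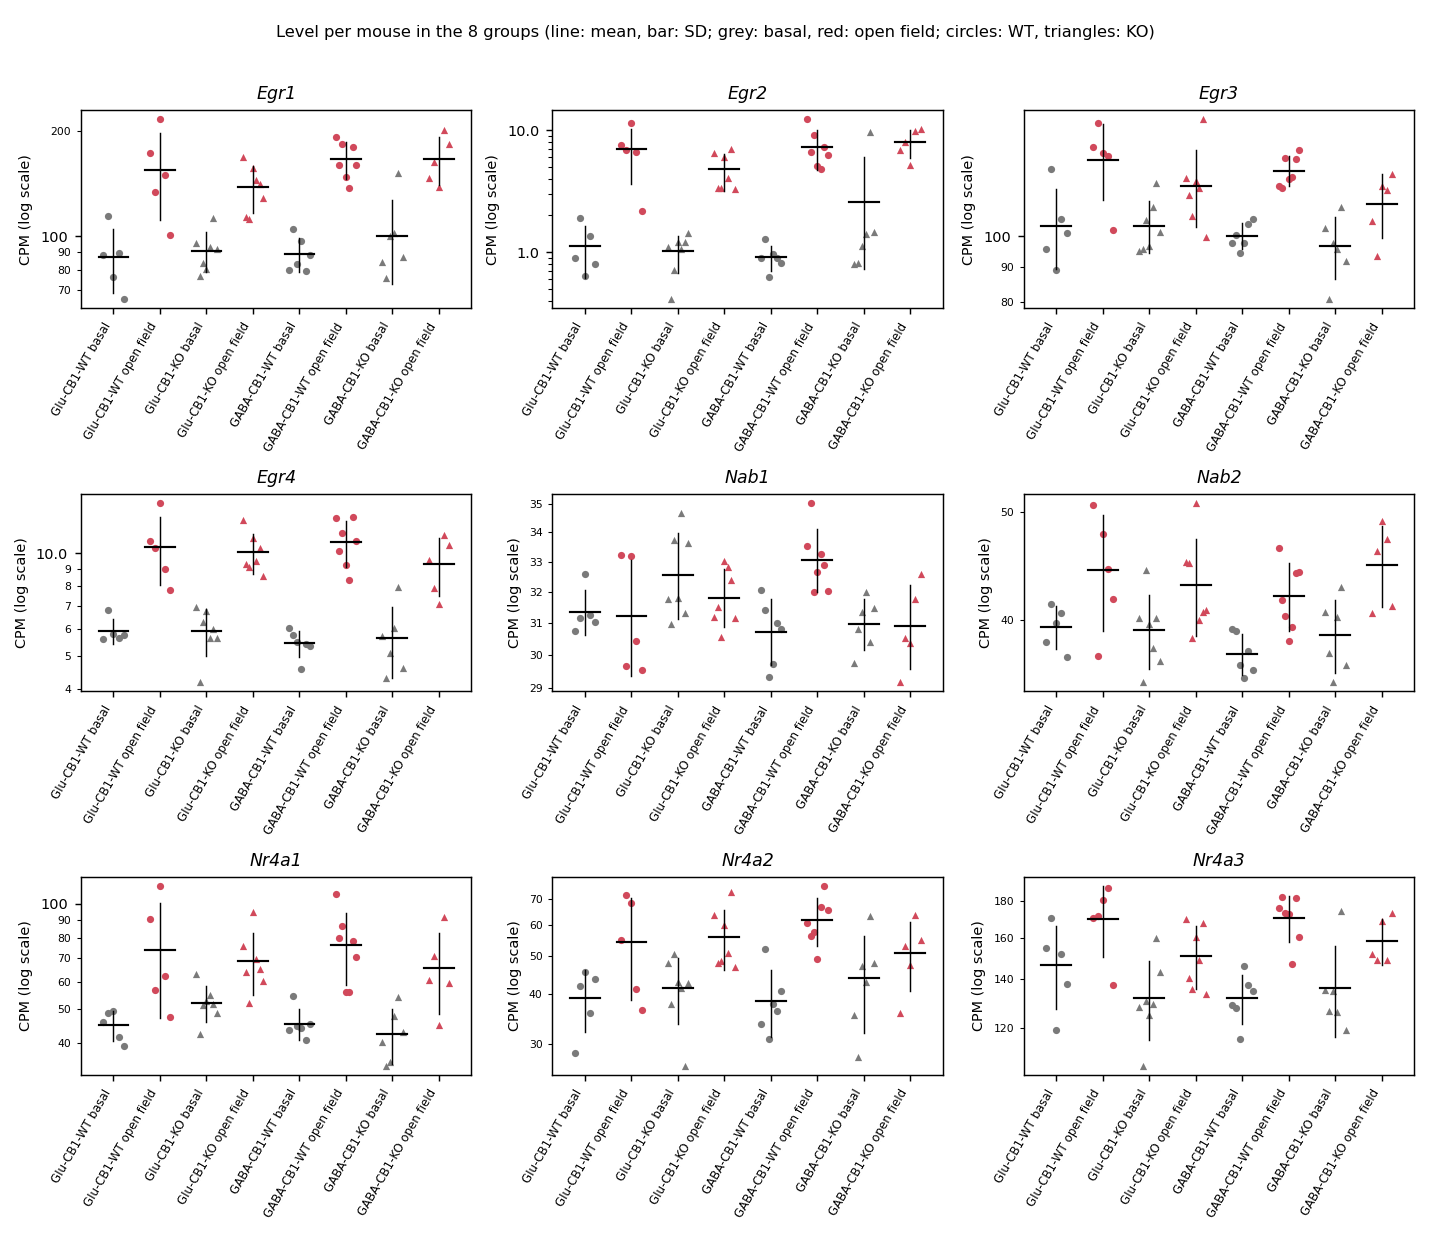
Level of each of the 9 genes in every mouse (CPM, log scale) in the 8 groups, with the group mean (line) and SD (bar). For every gene but *Nab1* the 4 open field groups had higher means than the 4 basal groups, an order that was not counted over all genes. In the basal state 1 GABA-CB1-KO mouse lay at 9.71 CPM of *Egr2*, among the open field mice.

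For 8 of the 9 genes, each of the 4 open field groups had a higher mean CPM than each of the 4 basal groups, and *Nab1* was the exception. How many of all genes have means in this order was not counted. For *Nr4a3* the nearest of these means were 151 CPM in Glu-CB1-KO mice after the open field (SD 15.1) and 147 CPM in basal Glu-CB1-WT mice (SD 19.3). When the 8 group means of a gene were put in order, neighbouring means differed by more than the larger of their SDs at 1 step for *Egr1* (from 138 CPM in Glu-CB1-KO mice after the open field to 100 CPM in basal GABA-CB1-KO mice), at 1 step for *Egr4* (from 9.28 CPM in GABA-CB1-KO mice after the open field to 5.93 CPM in basal Glu-CB1-KO mice) and at 1 step for *Nr4a1*, which lay between basal groups (from 52.2 CPM in Glu-CB1-KO to 45.6 CPM in GABA-CB1-WT mice). For the other 6 genes no neighbouring pair of groups differed by more than that spread.

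The response to the open field was tested within each line, with genotype as a term in the model. In the Glu line 6 of the 9 genes rose (*Egr1*, *Egr2*, *Egr3*, *Egr4*, *Nr4a1* and *Nr4a2*), where 1.33% of all genes tested rose and 1.8% changed at an adjusted p under 0.05. In the GABA line 7 rose (*Egr1*, *Egr2*, *Egr3*, *Egr4*, *Nab2*, *Nr4a1* and *Nr4a3*), where 0.761% of all genes rose and 0.963% changed. None of the 9 fell. Their median log2 fold change was 0.45 in the Glu line and 0.46 in the GABA line, beside medians of -0.0044 and -0.00055 over all genes. The lines share no libraries, and the order of the 9 by the size of their response was the same in both but for *Egr3* and *Nr4a3*, which changed places. Within the library sets, the log2 fold change of *Egr2* in the Glu line was 2.25 in the larger set alone and 2.66 in the smaller, that of *Egr1* 0.69 and 0.69, and that of *Egr4* 0.79 and 0.77. In mice of the GABA line these values were 2.09 and 3.41 for *Egr2*, 0.76 and 1.09 for *Egr1*, and 0.86 and 0.99 for *Egr4*. Every value of the 9 genes kept its sign in both sets, but with fewer mice none was called in the smaller set of the Glu line.

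*Egr2*, a factor best known for the control of myelination and hindbrain segmentation and also induced by activity in neurons, showed the largest response. In the basal state the 5 Glu-CB1-WT mice had 0.639, 0.803, 0.898, 1.36 and 1.90 CPM, and the Glu-CB1-KO mice ran from 0.412 to 1.43 CPM with a median of 1.10. After the open field the Glu-CB1-WT mice had 2.16, 6.58, 6.91, 7.54 and 11.5 CPM, and Glu-CB1-KO mice ran from 3.28 to 6.95 CPM (median 4.04). Every open field mouse of the Glu line thus lay above every basal mouse, the lowest being Glu-CB1-WT replicate 5. The log2 fold change was 2.40 (standard error, SE, 0.23, adjusted p = 1.16e-06, from the quasi-likelihood test of edgeR after Benjamini-Hochberg correction, as for all adjusted p-values below), a rise of 5.27-fold.

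In the GABA line, *Egr2* ran from 0.620 to 1.28 CPM in basal CB1-WT mice (median 0.896) and from 4.83 to 12.3 CPM after the open field (median 6.55). GABA-CB1-KO mice ran from 0.803 to 9.71 CPM in the basal state (median 1.26) and had 5.19, 6.83, 7.98, 9.81 and 10.2 CPM after the open field. The states did not overlap in CB1-WT mice, and in KO mice they overlapped through replicate 5 alone, since the next highest basal KO mouse had 1.47 CPM. The log2 fold change over the line was 2.27 (SE 0.34, adjusted p = 0.00134 by the edgeR test), and 2.92 without that mouse. *Egr2* was also the least counted of the 9: its counts lay between 13 and 57 in basal mice of the Glu line, so its level in single basal mice is known with less precision than that of the others.

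*Egr1* encodes the most studied member of the family in hippocampal plasticity (Zif268). Basal Glu-CB1-WT mice had 66.1, 76.6, 88.2, 89.4 and 114 CPM, and 100, 134, 149, 172 and 216 CPM were found after the open field. In Glu-CB1-KO mice *Egr1* ran from 77.2 to 113 CPM in the basal state (median 92.2) and from 112 to 169 CPM after the open field (median 141). The ranges overlapped in both genotypes, by 1 open field mouse in each: CB1-WT replicate 5 (100 CPM) lay below the highest basal CB1-WT mouse, and the lowest KO mouse lay just below the highest basal KO mouse. For the GABA line the ranges were 79.5 to 105 CPM (median 85.8) against 137 to 192 CPM (median 160) in CB1-WT mice, which do not overlap. GABA-CB1-KO mice ran from 75.8 to 152 CPM in the basal state (median 93.4) and had 138, 146, 163, 184 and 201 CPM after the open field, where replicate 5, at 152 CPM, was the only basal mouse above the lowest open field mouse. The log2 fold change was 0.70 in the Glu line (SE 0.10, adjusted p = 0.000599) and 0.82 in the GABA line (SE 0.09, adjusted p = 1.89e-05, both by the edgeR test).

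*Egr4* rose in both lines, by 0.78 in the Glu line (log2, SE 0.09, adjusted p = 5.16e-06) and by 0.87 in the GABA line (SE 0.10, adjusted p = 1.89e-05, edgeR test). Its basal levels in Glu-CB1-WT mice were 5.60, 5.63, 5.77, 5.78 and 6.83 CPM, and those after the open field 7.79, 9.01, 10.4, 10.9 and 14.1 CPM. Glu-CB1-KO mice ran from 4.19 to 6.95 CPM in the basal state and from 8.60 to 12.5 CPM after the open field. As for *Egr2*, all open field mice of the Glu line were above all its basal mice. This held for 2 of the 9 genes, beside 0.0261% of all genes. In the GABA line, CB1-WT mice ran from 4.60 to 6.04 CPM and from 8.34 to 12.7 CPM, and KO mice from 4.32 to 7.98 CPM and from 7.12 to 11.3 CPM, with replicate 5 again the highest basal mouse. The states overlapped in KO mice of this line and not in CB1-WT mice.

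*Egr3*, which is needed for the development of muscle spindles, had the next highest RPKM after *Egr1* but changed less. Its group means lay from 96.6 to 103 CPM in basal groups and from 111 to 130 CPM in open field groups. The rise was 0.25 in the Glu line (log2, SE 0.06, adjusted p = 0.0349) and 0.27 in the GABA line (SE 0.04, adjusted p = 0.00278, edgeR test). The call in the Glu line held in 9 of the 24 fits that each left out 1 library, with adjusted p up to 0.073, and that in the GABA line in 24 of 24.

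Of the corepressors, *Nab2* rose in the GABA line only by the threshold used, and a difference between the lines was not shown. Group means of *Nab2* lay from 37.4 to 39.4 CPM in basal groups and from 42.1 to 44.9 CPM in open field groups. The log2 fold change was 0.19 in the GABA line (SE 0.04, adjusted p = 0.0164) and 0.15 in the Glu line (SE 0.05, adjusted p = 0.109), and the test of the difference between lines gave -0.04 (95% interval -0.17 to 0.09, adjusted p = 1.00 by the edgeR test). The exons of *Nab2* overlap those of *Stat6* on the other strand by 70 bases, and an antisense transcript lies within the gene, so its counts are less certain where reads of the strands are not separated. *Nab1* gave the steadiest level of the 9. All its group means lay between 30.7 and 33.1 CPM, with SDs between 2.29% and 5.93% of the mean, and the log2 fold change was -0.02 in the Glu line (adjusted p = 0.793) and 0.06 in the GABA line (adjusted p = 0.354, edgeR test).

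Among the nuclear receptors, *Nr4a1* (Nur77) responded most. Basal Glu-CB1-WT mice had 39.3, 41.6, 45.9, 48.8 and 49.4 CPM, and open field mice of that genotype 47.6, 56.9, 62.3, 90.5 and 113 CPM, so that only replicate 5 lay within the basal range. Glu-CB1-KO mice ran from 42.4 to 62.9 CPM (median 51.7) and from 52.0 to 94.9 CPM (median 65.3), with overlap. CB1-WT mice of the GABA line ran from 40.9 to 54.6 CPM (median 44.4) in the basal state and from 56.0 to 107 CPM (median 78.3) after the open field, without overlap. Basal GABA-CB1-KO mice ran from 34.5 to 54.2 CPM (median 41.7), and the 5 open field mice had 45.3, 59.5, 60.6, 70.9 and 91.6 CPM, of which the lowest lay within the basal range. The log2 fold change was 0.53 in the Glu line (SE 0.11, adjusted p = 0.0127) and 0.69 in the GABA line (SE 0.11, adjusted p = 0.00134, edgeR test).

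*Nr4a2* (Nurr1), which is needed for midbrain dopamine neurons and is also induced in the hippocampus, had group means from 38.6 to 44.1 CPM in basal groups and from 51.0 to 61.6 CPM in open field groups. The change was near equal in the lines, 0.45 in the Glu line (log2, SE 0.11, adjusted p = 0.0333) and 0.46 in the GABA line (SE 0.12, adjusted p = 0.0591, edgeR test), and these fell on either side of the threshold. The difference between the lines was 0.01, with a 95% interval from -0.33 to 0.35. Its call in the Glu line held in 13 of 24 fits without 1 library, and in the GABA line 3 of 24 such fits made the call, among them the fit without GABA-CB1-KO basal replicate 5 (0.53, adjusted p = 0.00829, edgeR test). *Nr4a3* (Nor1) had group means from 132 to 147 CPM in basal groups and from 151 to 171 CPM in open field groups. It rose in the GABA line, by 0.30 on the log2 scale (SE 0.05, adjusted p = 0.00571), and its value in the Glu line was 0.20 (SE 0.06, adjusted p = 0.0958, edgeR test). In bulk tissue, more cells that express a gene and more RNA of it per cell cannot be told apart, and this holds for all of these responses.

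The response was then taken within each genotype. In GABA-CB1-WT mice 6 of the 9 genes rose (*Egr1*, *Egr2*, *Egr3*, *Egr4*, *Nr4a1* and *Nr4a3*), beside 0.182% of all genes, and the same 6 did not overlap between states, beside 0.488% of all genes. Glu-CB1-KO mice gave 3 (*Egr1*, *Egr2* and *Egr4*, beside 0.247%), and the states did not overlap for *Egr2* and *Egr4* (beside 0.176%). Glu-CB1-WT mice gave 2 (*Egr2* and *Egr4*, beside 0.0261% of all genes), and these did not overlap (beside 0.632%). GABA-CB1-KO mice gave 2 (*Egr1* and *Egr4*, beside 0.0781%), and no gene of the 9 was free of overlap (beside 0.689%). *Egr2* had the largest fold change in each of the 4: 2.62 in Glu-CB1-WT (SE 0.36), 2.23 in Glu-CB1-KO (0.31), 3.01 in GABA-CB1-WT (0.47) and 1.64 in GABA-CB1-KO mice (0.44), where the last was not called (adjusted p = 0.113 by the edgeR test). Without GABA-CB1-KO basal replicate 5 this last value was 2.83, and 4 of the 9 genes were called in GABA-CB1-KO mice. The count in these mice was 0 in 9 of the other 23 fits without 1 library, with the replicate number as a block and in the larger library set alone, while that in GABA-CB1-WT mice fell from 6 to 3 in 4 such fits, to 4 with the block and to 1 in the larger set. Without the 2 libraries rich in choroid plexus markers, which are described with the interaction, the counts were 0 in GABA-CB1-KO and 3 in GABA-CB1-WT mice. Over all genes, calls in fits without 1 library ran from 0 to 269 in GABA-CB1-KO mice, beside 14 with every library. In GABA-CB1-WT mice they ran from 6 to 86, beside 31.

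**Figure D2:**
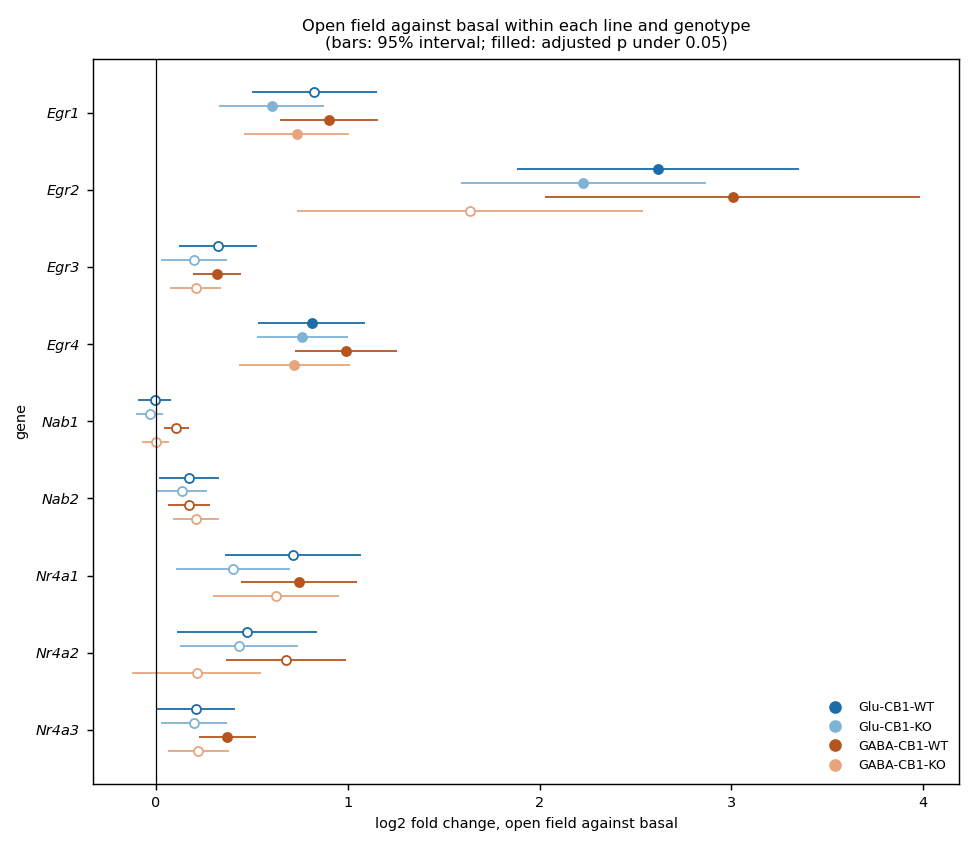
Log2 fold change of the open field against the basal state (x axis) for each gene (y axis) in the 4 combinations of line and genotype, with 95% intervals. Filled points passed an adjusted p of 0.05, and all values of the *Egr* and *Nr4a* genes lie above 0, with *Egr2* between 1.64 and 3.01.

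The counts of calls per genotype differ, but no difference in the response itself was shown. The interaction of genotype and state called none of the 9 in either line, beside 0% of all genes (0 of 15355 and 0 of 15374). At an unadjusted p under 0.05 there were 0 of the 9 in the Glu line, beside 2.47% of all genes (379), and 3 in the GABA line, beside 14.6% (2237). DESeq2 called 0 and 63 genes in all, none of them among the 9. In the GABA line the interaction was -1.37 for *Egr2* (95% interval -2.72 to -0.01, adjusted p = 0.338), -0.46 for *Nr4a2* (-0.92 to -0.005, adjusted p = 0.338) and -0.11 for *Nab1* (-0.20 to -0.01, adjusted p = 0.306, edgeR test), the sign being that of a smaller response in KO mice. Without GABA-CB1-KO basal replicate 5 the value was -0.17 for *Egr2* and -0.33 for *Nr4a2*. Markers of other cell types moved in the same interaction. All 6 choroid plexus markers had values above 0 without being called, led by *Ttr*, the transthyretin gene (7.87, unadjusted p = 9.04e-05, adjusted p = 0.198, edgeR test), as did 5 of 6 microglial markers, among them the complement gene *C1qb* (0.34, unadjusted p = 0.000488, adjusted p = 0.198, edgeR test). The choroid plexus markers summed to 4050 CPM in GABA-CB1-KO open field replicate 4 and to 1500 CPM in GABA-CB1-WT basal replicate 3, and to at most 109 CPM in the other mice of the line. Without these 2 libraries the interaction was -1.37 for *Egr2*, -0.50 for *Nr4a2* and -0.11 for *Nab1*, and none of the 9 was called. The part of microglia was not tested. In the smaller library set alone, where 3 of the 4 groups of the GABA line hold 1 mouse and the spread is that of the 2 basal CB1-WT mice, *Nr4a1* was called in the interaction (-0.96, adjusted p = 0.00226, edgeR test), beside -0.12 in all mice. In the Glu line it ran from -0.39 for *Egr2* to -0.01 for *Nr4a3*, with adjusted p of 1.00 for each. Between the lines, the estimate of the difference in response that lay farthest from 0 was -0.13 on the log2 scale (*Nr4a1*, 95% interval -0.45 to 0.20). The intervals allow larger differences, as for *Egr2*, with a ratio of 1.07 for the Glu line over the GABA line (0.587 to 1.96). None of the 9 was called, beside 0 of all 15570 genes, of which 327 had an unadjusted p under 0.05 (edgeR test) and DESeq2 called 0. Of the 9, only *Nab1* had a 95% interval that left out 1 for the ratio of the responses, Glu line over GABA line (0.952, 0.908 to 0.998). Without GABA-CB1-KO basal replicate 5 the difference between lines for *Egr2* went from 0.10 to -0.49 and was not called.

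KO and CB1-WT mice were compared in each line and state. None of the 9 genes was called in any of the 4 comparisons, where 0.0198% of all genes changed between basal mice of the Glu line and 0.272% between its open field mice, and 0.245% and 0.0199% in the GABA line. DESeq2 called none of the 9 either, and the libraries of KO and CB1-WT mice overlapped for every one of the 9 genes in all 4, where 0.192% and 0.743% of all genes did not overlap in the Glu line at rest and after the open field, and 0.709% and 0.987% in the GABA line. The larger library set alone gave no call either, nor did the smaller in the 3 comparisons that could be fitted there, since it holds 1 KO and 1 CB1-WT open field mouse of the GABA line. Of the 36 values, 6 had an unadjusted p under 0.05. These were 1 of 9 in basal and 1 of 9 in open field mice of the Glu line, beside 3.57% and 6.97% of all genes, and 1 of 9 and 3 of 9 in the GABA line, beside 8.16% and 13.2%.

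**Figure D3:**
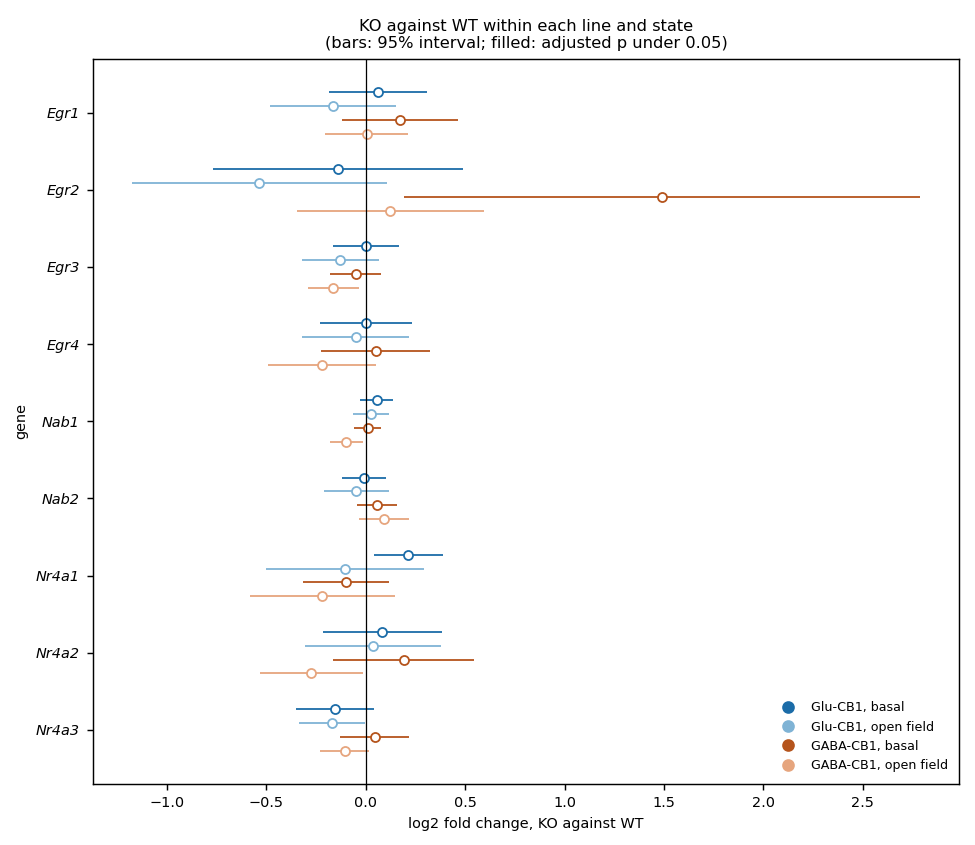
Log2 fold change of KO against CB1-WT mice (x axis) for each gene (y axis) in the 4 combinations of line and state, with 95% intervals. No point is filled, since none passed an adjusted p of 0.05, and the widest interval is that of *Egr2* in the GABA line in the basal state, from 0.19 to 2.79.

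In the Glu line in the basal state, *Nr4a1* had a mean of 45 CPM in CB1-WT and 52.2 CPM in KO mice. Its log2 fold change was 0.21 (SE 0.08, unadjusted p = 0.0197, adjusted p = 0.999), and the other 8 genes lay between -0.16 (*Nr4a3*) and 0.08 (*Nr4a2*). After the open field, *Nr4a3* gave -0.17 (SE 0.08, unadjusted p = 0.0455, adjusted p = 0.696), and *Egr2* had a mean of 6.94 CPM in CB1-WT and 4.78 CPM in KO mice, with a log2 fold change of -0.54 (95% interval -1.18 to 0.10, adjusted p = 0.861, all by the edgeR test). The median of the 9 was -0.10 there, beside -0.0025 over all genes.

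In the GABA line in the basal state, *Egr2* gave a log2 fold change of 1.49 (SE 0.61, unadjusted p = 0.0271, adjusted p = 0.569 by the edgeR test). This value rested on 1 mouse, and without GABA-CB1-KO replicate 5 it was 0.30 (adjusted p = 0.836, edgeR test). The other 8 genes lay between -0.10 (*Nr4a1*) and 0.19 (*Nr4a2*). After the open field 3 genes had an unadjusted p under 0.05, beside the 13.2% of all genes that did, and were lower in KO mice: *Egr3* (-0.16, SE 0.06, adjusted p = 0.301), *Nab1* (-0.10, SE 0.04, adjusted p = 0.323) and *Nr4a2* (-0.27, SE 0.12, adjusted p = 0.358, all by the edgeR test). Mean *Nr4a2* was 61.6 CPM in these CB1-WT mice and 51.0 CPM in KO mice. In the same comparison all 6 choroid plexus markers were higher in KO mice without being called, and their summed level reached 4050 CPM in 1 KO mouse (replicate 4) against 91.1 CPM in the highest CB1-WT mouse. This mouse also had the highest *Egr1*, *Nr4a1*, *Nr4a2* and *Egr4* of the 5 KO mice. Without it the values were -0.18 for *Egr3*, -0.11 for *Nab1* and -0.36 for *Nr4a2*, and none was called. The KO effect did not differ between the lines for any of the 9 genes at an adjusted p of 0.05, in the basal state (where 0.279% of all genes did) or after the open field (0.568%). As a ratio, Glu line over GABA line, the 95% interval left out 1 for basal *Egr2* (0.323, 0.111 to 0.939) and *Nr4a1* (1.24, 1.02 to 1.51). After the open field it did so for *Nab1* (1.09, 1.01 to 1.18). Of all genes, 1317 of 15390 and 1652 of 15325 had an unadjusted p under 0.05 (edgeR test). The *Egr2* value includes basal GABA-CB1-KO replicate 5, without which the KO effect on *Egr2* in the GABA line went from 1.49 to 0.30 on the log2 scale. The ratio without that mouse is not given here.

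The levels of the 9 genes were compared between mice of the same state after the mean of each of the 4 groups had been taken away (24 mice per state, 36 pairs of genes in 2 states, 72 relations). In the basal state Pearson's r ran from -0.13 to 0.825 with a median of 0.445, and 13 of 36 pairs had an adjusted p under 0.05 by permutation, 7 of them also by Spearman's rho. After the open field r ran from 0.0663 to 0.903 (median 0.526), and 18 of 36 pairs passed, 14 of them also by rho. By r over all mice the pair *Egr1* and *Egr2* had the highest value in both states, though in the basal state *Egr4* and *Nab2* had a higher rho. For *Egr1* and *Egr2* in the basal state r was 0.825 (adjusted p = 0.0006) and rho 0.71 (adjusted p = 0.00369), with r = 0.663 without the 2 mice farthest from the median of *Egr1*. Within the larger library set r was 0.806 and within the smaller 0.73. For *Egr4* and *Nab2* basal r was 0.768 (adjusted p = 0.0027) and rho 0.813 (adjusted p = 0.000823, by permutation), with r = 0.667 without the 2 mice farthest from the median of *Egr4*, 0.797 in the larger set and 0.809 in the smaller. After the open field r of *Egr1* and *Egr2* was 0.903 (adjusted p = 0.000144, from the smallest p that the permutations can give) and rho 0.87 (adjusted p = 0.00018), with r = 0.839 without the 2 farthest mice, 0.842 in the larger set and 0.975 in the smaller.

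**Figure D4:**
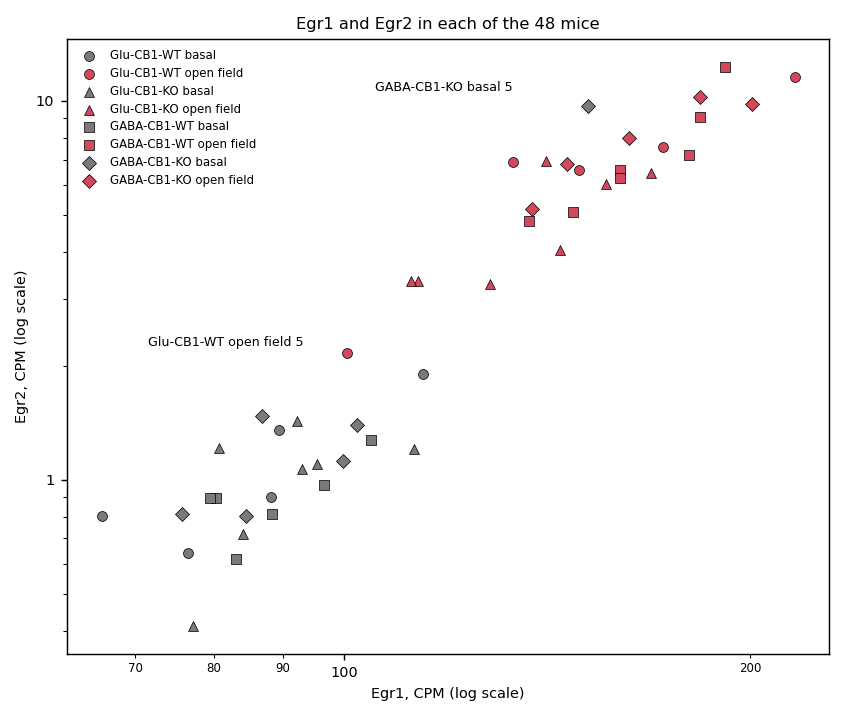
*Egr2* (y axis, CPM, log scale) against *Egr1* (x axis, CPM, log scale) in each of the 48 mice, by group. Basal mice lie at the lower left but for GABA-CB1-KO replicate 5 (152 and 9.71 CPM), and Glu-CB1-WT open field replicate 5 (100 and 2.16 CPM) lies nearest to the basal mice.

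*Egr4* varied with *Egr1* after the open field (r = 0.867, adjusted p = 0.000144; rho 0.84, adjusted p = 0.00018; r = 0.811 without the 2 farthest mice), as did *Nr4a1* (r = 0.882, adjusted p = 0.000144; rho 0.863, adjusted p = 0.00018; r = 0.84 without them, all by permutation). In the larger library set r was 0.839 for *Egr4* and 0.887 for *Nr4a1*, and in the smaller 0.927 and 0.947. For *Egr3* with *Nr4a1*, r after the open field was 0.193 (adjusted p = 0.503; rho 0.159, adjusted p = 0.582; 0.0668 without the 2 farthest mice, 0.106 in the larger set and 0.411 in the smaller), and for *Egr3* with *Nr4a3* it was 0.737 in the basal state (adjusted p = 0.00471; rho 0.669, adjusted p = 0.0109; 0.745 without the 2 farthest mice, by permutation). This last r was 0.764 in the larger set and 0.545 in the smaller. The basal relation of *Egr1* and *Egr4* rested on few mice, with r = 0.583 (adjusted p = 0.0268), rho 0.411 (adjusted p = 0.135) and r = 0.307 without the 2 farthest mice, by permutation (0.573 in the larger set and 0.689 in the smaller). Whether a correlation differed between states or pairs was not tested.

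**Figure D5:**
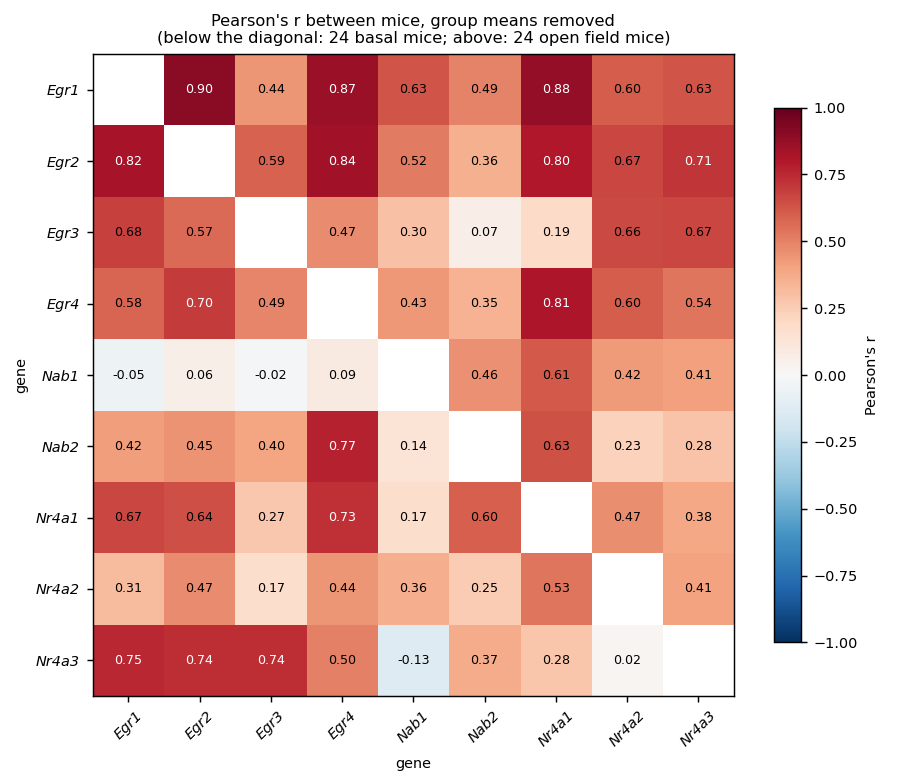
Pearson's r between each pair of genes over 24 mice, with group means taken away, for the basal state (below the diagonal) and the open field (above it). The highest values join *Egr1* with *Egr2* (0.825 and 0.903), and *Nab1* has the lowest values in the basal state, down to -0.13 with *Nr4a3*.

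The genes outside the 9 whose levels followed each of them most closely were found by Pearson's r over all 48 libraries, again without group means, as a description. For *Egr1* and *Egr2* this was *Fos* (r = 0.823 and 0.842), followed by *Dusp6* for *Egr1* (0.729) and *Fosb* for *Egr2* (0.782). *Nr4a1* was closest to *Arc* and *Junb* (0.852 each), *Nab2* to *Arc* (0.739), *Egr4* to *Midn* (0.764) and *Junb* (0.757), *Nr4a2* to *Fosl2* (0.777) and *Nab1* to *Dusp1* (0.62). *Egr3* was closest to *Chordc1* (0.764) and *Hspa8* (0.744), and *Nr4a3* to *Nrp1* (0.699) and *Hspa4* (0.68). The rest of the first 3 were *Fam46a* for *Egr1* (0.679) and *Egr2* (0.758), *Gadd45b* for *Nr4a1* (0.809) and *Sik1* for *Egr4* (0.732). For *Nab2* they were *Klhl21* (0.734) and *Per1* (0.718), and for *Nr4a2* *Fnbp1l* (0.75) and *Tmed8* (0.743). *Nab1* had *Arhgdib* (0.617) and *Ssbp2* (0.604), *Egr3* had *Gfod1* (0.722) and *Nr4a3* had *Eif4g1* (0.672). *Chordc1*, *Hspa8* and *Hspa4* encode a cochaperone and chaperones, while *Fos*, *Fosb*, *Fosl2* and *Junb* encode AP-1 factors. The points share libraries of 2 sets, which the removal of group means does not take out.

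Other genes of the pathway were taken from lists made by known role. Lists are set beside the 1.33% of all genes that rose after the open field in the Glu line and the 0.761% in the GABA line. Of 18 upstream regulators (SRF and its cofactors, CREB and CRTC coactivators, MEF2 factors, ERK and MSK1), 1 rose after the open field in each line and none fell. It was *Srf* in both lines, at log2 fold changes of 0.17 in the Glu line (SE 0.04, adjusted p = 0.0225) and 0.17 in the GABA line (SE 0.03, adjusted p = 0.0134, edgeR test). The medians of the 18 were 0.0071 and 0.0055. *Rps6ka5*, which encodes the kinase MSK1, was the only one of the 18 called between genotypes. Its log2 fold change was 0.25 in basal GABA-CB1-KO mice (SE 0.05, adjusted p = 0.039, edgeR test), where 0.245% of all genes changed. None of 12 partner genes (the RXR receptors that pair with some NR4A proteins, and the NuRD complex that NAB proteins recruit) was called in either line. Their medians were 0.0014 and -0.0068, and 1.8% and 0.963% of all genes changed.

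Of 21 other immediate early genes, 8 rose in each line and none fell, with medians of 0.22 and 0.24, where 1.33% and 0.761% of all genes rose. *Fos* rose by 1.92 (SE 0.21) in the Glu line and by 1.95 (0.26) in the GABA line, *Fosb* by 1.37 (0.13) and 1.30 (0.18), *Junb* by 0.50 (0.10) and 0.60 (0.09), and *Per1* by 0.41 (0.08) and 0.30 (0.07), all on the log2 scale. In both lines the values of *Fos* and *Fosb* lay between those of *Egr2* and *Egr4*. Between genotypes, 2 of the 21 fell in basal GABA-CB1-KO mice, where 0.245% of all genes changed and none of the 9 was called. These were *Ptgs2*, by 0.67 (SE 0.07, adjusted p = 0.000668), and *Npas4*, by 0.49 (SE 0.07, adjusted p = 0.00604, edgeR test).

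Genes reported as targets of these factors, mostly in other tissues, were then examined. Of 17 EGR targets 16 were tested, and *Arc* alone rose, by 0.64 in the Glu line (SE 0.15, adjusted p = 0.0221) and 0.69 in the GABA line (SE 0.15, adjusted p = 0.02, edgeR test). The medians of this list were -0.0064 and 0.014, and 1.33% and 0.761% of all genes rose in the Glu and GABA lines. *Arc* is also an immediate early gene in its own right and the gene by which the study checked activation. None of 7 NR4A targets was called after the open field (medians -0.079 and 0.067), beside 1.8% and 0.963% of all genes. Between genotypes, 0.245% of all genes changed in basal GABA-CB1-KO mice. There the EGR target *Ache*, which encodes acetylcholinesterase, fell by 0.19 (SE 0.04, adjusted p = 0.0433, edgeR test). The NR4A target *Slc18a2*, which encodes the vesicular monoamine transporter, fell by 0.88 (SE 0.14, adjusted p = 0.0171, edgeR test). No *Egr* or *Nr4a* gene was called in these mice, which does not show that their levels were unchanged. The part of EGR and NR4A proteins in these falls was not tested.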

How the data were processed

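RNA of the CA region was amplified with a SPIA kit and sequenced as single reads, 1 library per mouse (48 libraries, 5 to 7 per group). Per the labels and the study's methods, the authors trimmed reads, aligned them to mm10 with STAR 2.6.0a and counted them on genes with featureCounts 1.6.2 with its strand option, and the deposited values are raw counts. Whether the kit marks strand was not given in the sources used here. Totals ran from 25892654 to 34091080 counts per library (median 30975561).

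Groups came from the labels, in which the GABA-CB1 open field groups hold 7 CB1-WT and 5 KO mice (the study's text gives these sizes the other way round). Counts were tested with edgeR 4.0.16 (TMM, filterByExpr, quasi-likelihood test, limma 3.58.1, R 4.3.3), with p-values adjusted by Benjamini-Hochberg over all genes tested. KO and CB1-WT were compared in 12 libraries each, the open field and basal states within each line (24 libraries, genotype as a term, or 4 group means for each genotype and the interaction), and the lines in joint fits. Correlations used log2 CPM with a prior count of 2, group means removed and 100000 permutations within groups, in Python 3.11.15 with numpy 2.4.6, pandas 2.3.3 and scipy 1.17.1. Figures were drawn with matplotlib 3.10.9. The fits were tested on simulated data. Promoter sequences came from RefSeq (GRCm38.p6), with 7 of the 9 genes matched.

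The genes and gene lists were chosen with earlier results of these data known. All 9 genes were named, from each other list at most 6 called genes with the smallest p, and for each of the 9 the 3 most correlated genes outside the 9. The alternatives were DESeq2 1.42.0, DESeq2 size factors in edgeR, a filter of 1 count over the libraries, a minimum of 10 counts in each library, 1 fit to all 48 libraries, a covariate for the range of the number in the sample title, a block for the replicate number, and leaving out each library. Replicates are separate mice by the study's methods.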

Additional observations from a re-analysis of the deposited data

Results flagged for a closer look

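In 6 of 72 groups of a gene, 1 mouse lay far from the others of its group by Dixon's criterion, which chance alone meets in about 1 of 20 groups. Replicate 5 of the basal GABA-CB1-KO mice accounted for 3 of the 6, with 152 CPM of *Egr1* (the nearest other mouse had 102 CPM), 9.71 CPM of *Egr2* (nearest 1.47 CPM) and 174 CPM of *Nr4a3* (nearest 135 CPM). Replicate 2 of the Glu-CB1-WT mice in the basal state had 6.83 CPM of *Egr4*, where the nearest other mouse had 5.78 CPM. Replicate 3 of the same group had 32.6 CPM of *Nab1* (nearest 31.2 CPM). Replicate 2 of the GABA-CB1-WT mice in the basal state had 54.6 CPM of *Nr4a1* (nearest 45.3 CPM).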

How the results depend on the processing

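None of the 26 values called in a comparison changed sign under any of the 12 alternatives that apply to it or in any of 336 fits without 1 library, while 47 of the 109 values not called did so in at least 1 of these fits. The alternatives that use the library sets, the first principal component and the choroid plexus markers (leaving out the 2 libraries over 1000 CPM, in the comparisons that hold them) were chosen after seeing the data. The smaller set alone could not be fitted for KO against CB1-WT in open field mice of the GABA line. In the Glu line the number of the 9 genes called after the open field went from 6 to 0 in the smaller library set alone, and in the GABA line from 7 to 4 in the larger set alone and to 4 in the smaller, with fewer mice in each of these fits. In the larger set alone it went from 2 to 1 in Glu-CB1-WT, from 6 to 1 in GABA-CB1-WT mice, and in GABA-CB1-KO mice it went from 2 to 0. In the smaller set alone it went to 0 in Glu-CB1-WT and from 3 to 0 in Glu-CB1-KO mice, and to 5 in GABA-CB1-KO mice and from 0 to 1 in the interaction in the GABA line, where the fit rests on 5 mice with 3 of the 4 groups at 1 mouse. Without the 2 libraries rich in choroid plexus markers it was 3 in GABA-CB1-WT mice and 0 for the KO mice of that line. The 2 calls in GABA-CB1-KO mice became 4 with DESeq2, 1 with the filter of 1 count and 1 with the first principal component as a covariate, and the cause was not tested. Without 1 library the number called ran from 4 to 7 in the Glu line, 7 to 8 in the GABA line, 1 to 3 in Glu-CB1-WT, 2 to 3 in Glu-CB1-KO, 3 to 7 in GABA-CB1-WT and 0 to 4 in GABA-CB1-KO mice, and was 0 to 0 in all other comparisons. It was 1 in Glu-CB1-WT mice without their basal replicate 1, 3 or 4, and 3 in GABA-CB1-WT mice without their basal replicate 1 or 3 or open field replicate 6 or 7. In GABA-CB1-KO mice it was 0 without GABA-CB1-WT basal replicate 5 or 6, GABA-CB1-KO basal replicate 1, 2, 3, 4 or 6 or open field replicate 2 or 4, it was 1 without GABA-CB1-WT open field replicate 3 or GABA-CB1-KO open field replicate 1, and it was 4 without GABA-CB1-KO basal replicate 5 or open field replicate 5. Over all genes, calls for the open field without 1 library ran from 149 to 440 in the Glu line and from 71 to 267 in the GABA line. Within genotypes they ran from 3 to 5 in Glu-CB1-WT, 9 to 248 in Glu-CB1-KO, 6 to 86 in GABA-CB1-WT and 0 to 269 in GABA-CB1-KO mice.

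With the replicate number as a block, 5 of the 9 genes were called in the Glu line, 6 in the GABA line, 2 in Glu-CB1-WT, 2 in Glu-CB1-KO, 4 in GABA-CB1-WT and 0 in GABA-CB1-KO mice. No pairing of mice by these numbers was shown. In the Glu line the correlation of deviations was over 0.1 in 11 of 32 pairs with the same number and in 52 of 182 with different numbers. In the GABA line it was over 0.1 in 5 of 33 and in 38 of 182. The medians for the same and different numbers were -0.00648 and 0.0128 in the Glu line, and -0.0175 and 0.000446 in the GABA line. The difference was not tested. Over all genes, the count between genotypes was 3 by edgeR, 12 by DESeq2 and 3 with the block in basal mice of the Glu line, 41, 123 and 3 in its open field mice, 37, 110 and 8 in basal mice of the GABA line, and 3, 152 and 1 in its open field mice. For the open field these counts were 276, 487 and 255 in the Glu line (662 with the library set as a covariate) and 148, 270 and 36 in the GABA line, and 4, 15 and 4 in Glu-CB1-WT, 47, 211 and 35 in Glu-CB1-KO, 31, 172 and 7 in GABA-CB1-WT and 14, 194 and 0 in GABA-CB1-KO mice. Depth limits *Egr2* most, with as few as 13 counts in a basal library.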
